A study of Mus musculus with 3 samples.

Results

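Mono is the authors' name for a cluster of 1052 among 11132 mouse bone marrow cells. The members are the cells that carry exactly this name in the authors' deposited cluster table, 450 of 4336 cells of the female library and 602 of 6796 of the male library. That is 10.4% of female cells (95% exact binomial interval 9.49% to 11.3%) and 8.86% of male cells (8.19% to 9.56%), intervals that cover counting error only. The cells came from wild-type C57BL/6 mice with no treatment and from a gate named modified GMP in the labels (GMP commonly means granulocyte-monocyte progenitor). The sources used here give neither the age nor the number of mice. Marrow of crushed hindlimbs was enriched for CD117, the receptor encoded by Kit, sorted, and profiled by CITE-seq, which counts transcripts and antibody-bound tags (Ly-6C, CD117, CD11b and Ly-6G) in the same cells. Each sex had 1 mRNA library, and a single pooled library held the antibody tags of the female and male cells. The study asks which states precede commitment to granulocytes, and the labels do not spell out the cluster names.

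Granulocyte-monocyte progenitors give rise to neutrophils and to monocytes. In mice, the transcription factor encoded by Irf8 promotes the monocyte and dendritic fates together with PU.1 (encoded by Spi1), and Klf4 acts downstream of it in monocytes. Gfi1 and Cebpe encode transcription factors needed for neutrophil development, and early granule proteins such as elastase (Elane) and myeloperoxidase (Mpo) are made by progenitors of the granulocyte and monocyte lineages. Ly-6C is a surface protein of inflammatory monocytes and their progenitors, and CD117 is a receptor of early progenitors that is lost on maturation.

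Mono cells were deeply covered, with medians of 24366.5 (female) and 20305 (male) unique molecules (UMIs) per cell and totals of 11336795 and 12526274. In all, 45 cell barcodes occurred in both libraries, and 7 Mono cells carried one of them. Unless stated otherwise, levels are CPM, the UMIs of a gene summed over a cluster's cells in a library and scaled to the total, with TMM factors over Mono, MP, cMoP, MDP and Gran-1. Pairs of values are female, then male library, and each ± in a comparison of clusters is an SD over the 2 libraries. Where Mono cells are divided by antibody, each ± is a standard error (SE) instead. The authors built the clusters from the same cells, so differences in transcripts between clusters are descriptions without a test. A gene is called higher or lower where it differed at least 2-fold in the same direction in both libraries, among genes with a mean of at least 10 CPM.

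Short stretches of promoter sequence are shown here for genes called higher in Mono than in MP (Pld4, S100a4 and Ctss), MDP (Ly6c2) or Gran-1 (Ly86). S100a4 and Ctss were also called lower in Mono than in cMoP. The stretches hold the letters that PU.1 or interferon regulatory factors (IRFs) are known to bind. They come from RefSeq promoters on GRCm38.p6, each with 250 bases before and 50 after a gene's start. The motifs searched on both strands were GAGGAAG (PU.1), GGAANNGAA (an ETS factor with an IRF) and GAAANNGAA (an IRF), where GGAANNGAA and GAAANNGAA can overlap a GAGGAAG. Capitals mark the match, with 10 bases on each side in the shorter stretches, read 5′ to 3′ on the strand of the gene. The Ly86 stretch is chr13:37345335-37345363 (plus strand), Ly6c2 chr15:75112063-75112089 (minus), Pld4 chr12:112760654-112760680 (plus) and S100a4 chr3:90603778-90603804 (plus). Around the start of Ctss, chr3:95526686-95526805 (plus) holds an IRF motif and, nearer to the start and on the other strand, an ETS with IRF motif that overlaps a PU.1 motif. In Pld4, an ETS with IRF motif overlaps the PU.1 motif shown.
Ly86: ttcgagaagtGAAACTGAAcatactactc
Ly6c2: tgttggccctGAGGAAGtaagaaccaa
Pld4: tcagaacaaaGAGGAAGtgaatggaag
S100a4: ctattcagcaCTTCCTCtctcttggtc
Ctss: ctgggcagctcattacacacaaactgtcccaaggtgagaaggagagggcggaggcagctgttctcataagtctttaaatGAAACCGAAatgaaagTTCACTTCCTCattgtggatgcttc
Of the 36 genes called higher in Mono than in MP (0.577% of 6242 genes), 32 had a promoter. GAGGAAG was in a promoter of 12 of these 32 genes, a share of 37.5% against 16.2% of the 5015 tested genes with a promoter. Among the 12 were Ctss, Pld4, S100a4, Trem2 and Vim. GAAANNGAA was in 18.8% of the same 32 against 8.45%, and GGAANNGAA in 9.38% against 8.63%. For the 148 genes called higher in Mono than in Gran-1 (2.35% of 6288), the shares over 112 genes with a promoter were 19.6%, 17.9% and 14.3%, against 16.2%, 8.38% and 8.69% of those tested. GAGGAAG was also in a promoter of 7 of the 15 genes with a promoter among those called lower in Mono than in MDP (46.7%, against 16.4% of those tested). GAAANNGAA was likewise not particular to genes higher in Mono. It was in 21.4% of the 28 genes with a promoter called lower than in cMoP (8.39% of those tested). For the 86 lower than in Gran-1 it was 12.8% (against 8.38%), and for the 15 lower than in MDP 0%. No motif of the 3 was in the promoter stretches of Irf8, Prdx4, Klf4, Lgals3, Lyz2 or Psap. A match is a description of letters, and 13.6%, 8.24% and 8.56% of all 32851 promoters held GAGGAAG, GGAANNGAA and GAAANNGAA. These are shares of single promoters, while the shares above count a gene if any of its promoters held the motif.

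The markers given for Mono were high in it, but none was at its highest there. Among the 15 clusters with at least 20 cells in each library (CPM without TMM scaling), Irf8 ranked 2nd in both, at 555.0 and 602.1 CPM, after cMoP (754.2 and 727.1). Ly86, which encodes a protein that partners a Toll-like receptor homologue, also ranked 2nd, at 145.9 and 87.6 CPM against 237.1 and 110.8 in cMoP. Ly6c2, which encodes a Ly-6C protein, ranked 3rd at 3696 and 3822 CPM, after Gran-2 and cMoP in the female and cMoP and Gran-2 in the male library. Prdx4, which encodes a peroxiredoxin of the endoplasmic reticulum, ranked 3rd (107.2 CPM) and 4th (94.7), below cMoP and Meg and, in the male library, MDP. These ranks leave out the small clusters HSCP-1 (14 and 10 cells) and DC (11 and 22 cells). DC was above both cMoP and Mono for Irf8 (1279 and 1929 CPM) and Ly86 (240.5 and 127.5). Ly86 was lower in the male library in Mono and in each of the 4 clusters compared, so only its ratios within a library are compared.

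**Figure D1:**
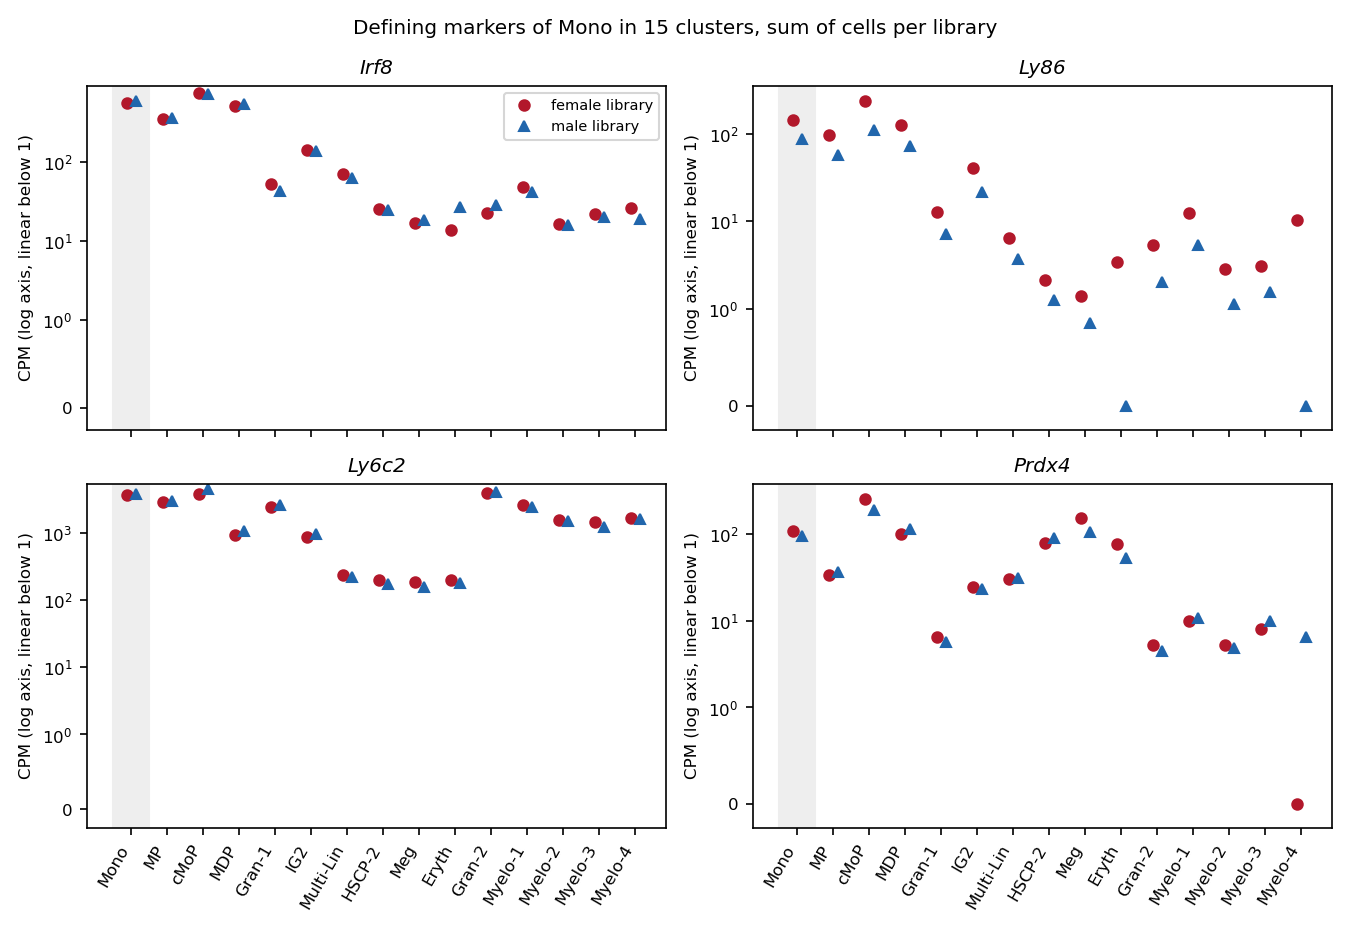
Level of Irf8, Ly86, Ly6c2 and Prdx4 (CPM without TMM scaling, log axis that is linear below 1) in 15 clusters, with a point for the summed cells of each library. The small clusters DC and HSCP-1 are not drawn. Mono (shaded) lies next below cMoP for Irf8 and Ly86, and cMoP lies above it for all 4 genes in both libraries.

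Klf4 ranked 2nd in both libraries (84.9 and 79.4 CPM, against 190.6 and 192.5 in cMoP), and Csf1r, the receptor of the growth factor that sustains monocytes, ranked 2nd and 3rd (53.7 and 46.9 CPM). DC, left out of the ranks, had 230.9 and 199.5 CPM of Klf4. Gfi1 ranked 11th in both, at 12.8 and 11.6 CPM. No gene was 1.5-fold higher in Mono than in every other of the 14 clusters. Of 4258 genes at 20 CPM or more, 17 (0.399%) were highest in Mono in both libraries, and their margin was small: Hmga1b, at the top, was 1.10-fold above the next cluster. With only clusters of at least 50 cells in each library, which leaves out cMoP, 193 genes were highest in Mono. Markers of other cell types were summed as well. The 9 T and NK cell markers summed to 1.32 and 0.878 CPM with 5 of them at 0 (Cd3e, Cd3g, Trbc2, Il7r and Ncr1). The 9 B cell markers summed to 46.0 and 41.2 CPM, led by Cd79b at 40.4 CPM, with 3 at 0 (Ebf1, Pax5 and Ms4a1), and 14 erythroid and megakaryocyte markers to 41.8 and 33.3 CPM, led by Apoe at 18.2 CPM. Dendritic cell markers summed to 22.2 and 21.2 CPM over 13 genes with 4 at 0, and macrophage markers to 16.2 and 14.8 CPM over 13 genes with 1 at 0 (Mertk). Basophil, eosinophil and mast cell genes summed to 158.6 and 92.6 CPM over 12 genes, led by Mcpt8 at 45.3 CPM.

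By the number of genes that differed at least 2-fold in both libraries, Mono lay closest to MP and then cMoP. These counts used CPM without TMM scaling and a mean of 50 CPM or more. They were 11 of 2243 genes (0.490%) between Mono and MP, 20 (0.878%) between Mono and cMoP and 31 (1.36%) for MDP. For Gran-1 they were 91 (4.10%), and for Myelo-4, the most distant cluster, 1121 (59.8%). The order of MP and cMoP depended on the method. edgeR with the library as a covariate called 171 genes higher and 53 lower in Mono against MP, and 46 and 125 against the smaller cMoP. For most genes that differed between cMoP and MP, the level in Mono lay between them. Of 158 genes at least 2-fold higher in cMoP than in MP in both libraries, Mono had a level between these clusters in both libraries for 157. On the log2 scale from MP to cMoP, the median gene in Mono had gone 54.0% of the way, and 147 of the 158 lay between 25% and 75%. Of 57 genes lower in cMoP than in MP, 56 were between in both libraries, with a median of 36.7% of the way. The exception, Slc4a8, was at 29.0 and 27.6 CPM in Mono, 26.3 and 27.8 in MP, and 12.2 and 10.2 in cMoP. This comparison was chosen after the data were seen, and its genes were picked for differing between the outer clusters, where no value for an unrelated cluster was computed. A place in between was not particular to MP: Mono also lay between Gran-1 and cMoP for 243 of 263 genes higher and 177 of 194 lower in cMoP, and between MDP and cMoP for 104 of 129 and 45 of 54.

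**Figure D2:**
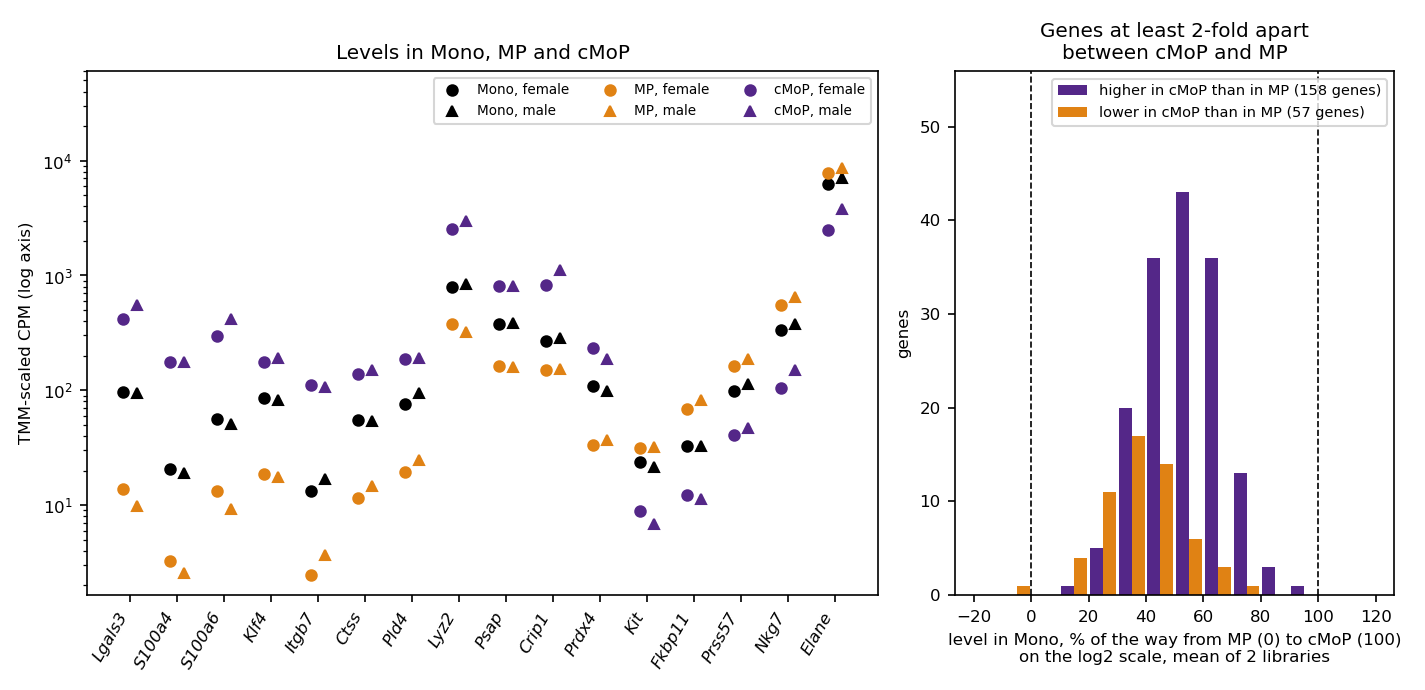
Left, TMM-scaled CPM (log axis) of 16 genes in Mono, MP and cMoP, a point per library. Right, number of genes by the place of Mono on the log2 scale between MP (0%) and cMoP (100%), for the 158 genes higher and the 57 lower in cMoP: most lie between 25% and 75%.

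Regulator, lysosome and phagocyte genes were among those in between. Klf4 was 86.3 and 82.5 CPM in Mono, against 18.7 and 17.5 in MP and 177.7 and 191.0 in cMoP, which is 66.0% of the way. Lgals3, which encodes the lectin galectin-3 of macrophages, had 96.2 and 94.3 CPM in Mono, against 13.8 and 9.77 in MP and 419.7 and 555.9 in cMoP. The cathepsin gene Ctss had 55.2 and 54.2 CPM in Mono, against 11.6 and 14.7 in MP and 137.7 and 150.2 in cMoP (59.0%). Lyz2, which encodes lysozyme, had gone less far, at 41.1%. Of the genes that were lower in cMoP, Kit had gone 24.0% of the way and Fkbp11, which encodes a chaperone of the secretory pathway, 45.3%.

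Compared with MP, Mono carried more transcripts of monocyte identity genes, and no primary granule gene differed 2-fold in both libraries. Besides the 36 genes called higher, 2 were called lower (0.032%). Of 22 monocyte identity genes tested from a list of 24, 8 were called higher and none lower, with a median log2 ratio of 0.91 against 0.00 over all genes tested. The list holds the markers given for Mono (Irf8, Ly86, Ly6c2 and Prdx4), and Prdx4 was among the 8. Lgals3 was higher by 2.93 ± 0.31 on the log2 scale, Klf4 by 2.16 ± 0.02, and Pld4, which encodes an endolysosomal nuclease, by 1.91 ± 0.02 (75.9 and 94.0 CPM in Mono, 19.2 and 24.6 in MP). Prdx4 was higher by 1.53 ± 0.21, and Lyz2 by 1.23 ± 0.24. Irf8 was 564.1 and 625.7 CPM in Mono against 356.1 and 371.8 in MP, a log2 ratio of 0.71 ± 0.06 that is below 2-fold. Irf5, which encodes another interferon regulatory factor, was higher by 1.56 ± 0.14. The 11 primary granule genes had a median log2 ratio of -0.40, with sums of 22640 and 24589 CPM in Mono against 26841 and 29203 in MP. Elane had 6271 and 7035 CPM in Mono and 7795 and 8621 in MP, a log2 ratio of -0.30 ± 0.01. Fkbp11, with 32.6 and 32.8 CPM in Mono and 68.2 and 81.7 in MP, was 1 of the 2 genes called lower, with Serpine2, a protease inhibitor gene (10.8 and 10.5 CPM in Mono, 26.8 and 26.3 in MP). Each library taken alone called 4 genes lower.

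Compared with cMoP, Mono had lower levels of 6 monocyte identity genes and higher levels of a few progenitor and granule genes. In all, 35 genes were called lower (0.563% of 6220) and 9 higher (0.145%). S100a4, which encodes a calcium-binding protein of mature myeloid cells, had 20.6 and 18.9 CPM in Mono against 176.5 and 177.9 in cMoP (log2 ratio -3.10 ± 0.09). Itgb7, an integrin gene, was lower by a log2 ratio of -2.78 ± 0.28, S100a6 by -2.69 ± 0.42, Lgals3 by -2.33 ± 0.31 and Lyz2 by -1.75 ± 0.10. Of 22 monocyte identity genes tested, 6 were called lower and none higher (median log2 ratio -0.66, against 0.05 over all genes tested). Irf8 was near equal, at 564.1 and 625.7 CPM in Mono and 702.8 and 721.4 in cMoP (-0.26 ± 0.08). Of 11 primary granule genes 2 were called higher, of 14 secondary granule genes none, and of 7 multipotent genes 1, with none lower. These were Nkg7, a gene of granule-bearing cells (332.7 and 374.6 CPM against 104.4 and 149.6; 1.49 ± 0.24), the protease gene Prss57 (1.26 ± 0.01) and Kit (23.9 and 21.6 CPM against 8.88 and 6.80; 1.43 ± 0.14). cMoP held only 39 and 97 cells. The female library alone called 64 lower and 92 higher genes and the male library alone 23 higher, and with each cell thinned to 4000 UMIs the counts were 59 lower and 62 higher.

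Compared with MDP, Mono had fewer transcripts of 5 early progenitor genes and more of Ly6c2, Fcgr3 and 4 primary granule genes. In all, 73 genes were called higher (1.16% of 6281) and 20 lower (0.318%), and the male library alone gave 41 lower. Of 8 multipotent genes tested from a list of 17, 5 were called lower and none higher, with a median log2 ratio of -1.46 against 0.04 over all genes tested. Flt3, which encodes the receptor of a dendritic growth factor, had 4.48 and 2.74 CPM in Mono against 35.0 and 29.8 in MDP (-2.88 ± 0.23). Sox4, a transcription factor gene of early progenitors, had 67.6 and 56.9 CPM in Mono against 225.5 and 206.8 in MDP (-1.78 ± 0.08). Cd34, a surface protein of progenitors, had 106.6 and 102.5 CPM in Mono against 268.2 and 232.9 in MDP (-1.25 ± 0.10). Higher in Mono were Ly6c2, at 3756 and 3971 CPM against 876.3 and 1005 in MDP (2.04 ± 0.08), Fcgr3, an Fc receptor gene (192.4 and 193.0 against 41.5 and 50.4 CPM; 2.05 ± 0.19), and Elane (6271 and 7035 against 1737 and 1855 CPM; 1.89 ± 0.05). Of 11 primary granule genes, 4 were called higher (Nkg7, Elane, Ms4a3 and Ctsc), and of 13 secondary granule genes none. Irf8 (0.23 ± 0.02), Csf1r (0.12 ± 0.06) and Prdx4 (0.02 ± 0.26) were near equal in both clusters.

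Compared with Gran-1, most monocyte identity genes were higher and most primary granule genes lower in Mono. In all, 148 genes were called higher and 116 lower (1.84%). Of the 22 monocyte identity genes tested, 17 were called higher and none lower (median log2 ratio 2.33, against -0.02 over all genes tested). Among the 17 were Irf8, Ly86 and Prdx4, markers given for Mono. Irf8 had 564.1 and 625.7 CPM in Mono against 53.9 and 46.5 in Gran-1 (log2 ratio 3.54 ± 0.26), and Prdx4 108.9 and 98.4 against 6.70 and 6.06 CPM (3.83 ± 0.01). Ms4a6c, a membrane protein gene of monocytes, was higher by 3.41 ± 0.11, Ly86 by 3.40 ± 0.02 and F13a1, which encodes a clotting factor subunit that monocytes make, by 2.93 ± 0.21. Of 11 primary granule genes, 8 were called lower and 1, Ctsc, higher. Of 14 secondary granule genes, 2 were called lower (Pglyrp1 and Wfdc21) and 1 higher (Ifitm6), with a median log2 ratio of 0.07. The summed level of the 11 primary granule genes was 22640 and 24589 CPM in Mono against 43434 and 49017 in Gran-1. For the 17 secondary granule genes it was 8202 and 6774 CPM in Mono and 10115 and 8770 in Gran-1. It was 7972 and 5395 CPM in MP, 7111 and 5454 in cMoP and 6618 and 4728 in MDP. Granule transcripts were also counted in Eryth cells, with 722.6 and 577.9 CPM of Elane and 810.6 and 826.7 of Mpo (without TMM scaling). Cebpe had 46.0 and 44.5 CPM in Mono against 262.6 and 277.6 in Gran-1 (-2.55 ± 0.09), and Gfi1 12.999 and 12.03 against 73.0 and 73.8 (-2.46 ± 0.08). Cd63, a membrane protein gene of granules and lysosomes, was at -3.27 ± 0.01. Spi1 (0.09 ± 0.01) and Cebpa (-0.06 ± 0.02), both needed for either lineage, were near equal. Prg2, an eosinophil granule gene, was at -3.59 ± 0.25, and 91.6% and 88.1% of its UMIs in Gran-1 came from the 10 cells that held the most.

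**Figure D3:**
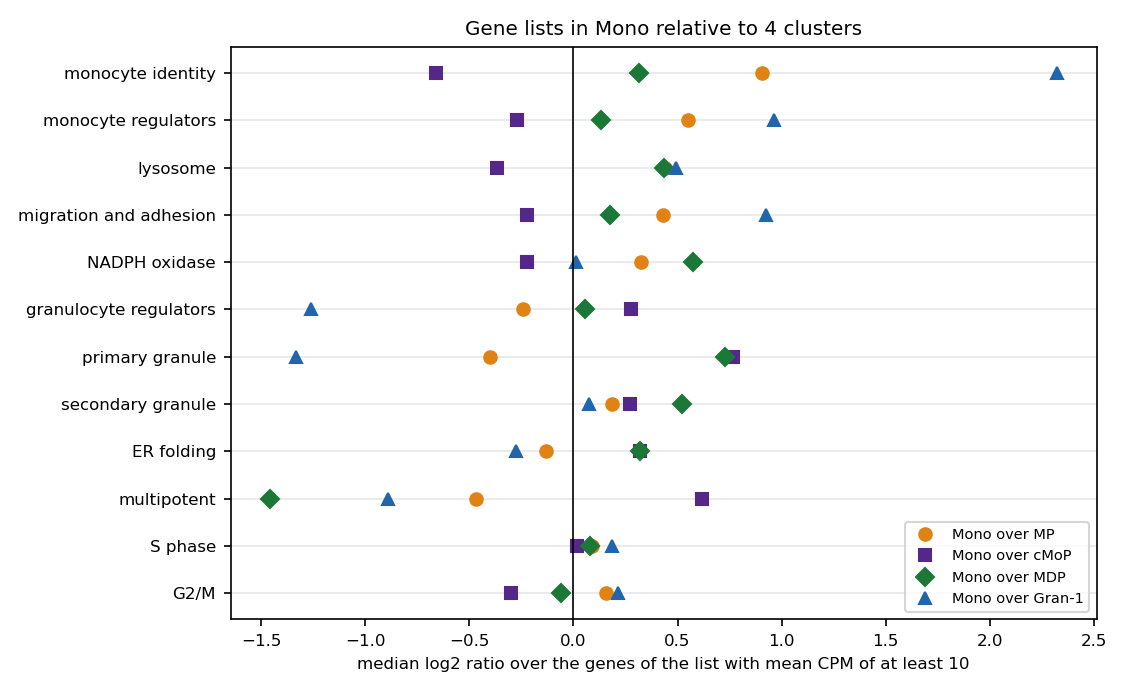
Median log2 ratio of Mono over MP, cMoP, MDP and Gran-1 for 12 gene lists, over the list's genes with a mean of at least 10 CPM. The monocyte identity list has medians of 0.91, -0.66, 0.31 and 2.33, and the primary granule list -0.40, 0.77, 0.73 and -1.33.

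None of 15 S-phase and none of 15 G2/M genes was called in any of the 4 comparisons, with medians between -0.30 and 0.21 on the log2 scale. Ly6c2 was near equal between Mono and cMoP (-0.03 ± 0.19). For Ccr2, a chemokine receptor gene of monocytes, the libraries differed widely: 83.3 and 105.9 CPM in Mono against 37.7 and 87.7 in MP (0.70 ± 0.60).

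The share of cells with a UMI gave the same order. With each cell thinned to 4000 UMIs, Irf8 was seen in 88.0% (84.6% to 90.9%) and 90.5% (87.9% to 92.7%) of Mono cells, against 16.6% and 12.4% of Gran-1 cells, and without thinning in 100% and 99.5% of Mono cells. In Eryth cells, which should lack Irf8, the thinned share was 9.76% and 14.0%, over 41 and 43 cells at median depths of 12993 and 10904 UMIs. The exact binomial intervals of these shares, 2.72% to 23.1% and 5.30% to 27.9%, held the Gran-1 shares, while the level of Irf8 without TMM scaling was 52.3 and 43.7 CPM in Gran-1 against 13.8 and 27.4 CPM in Eryth. Klf4 was seen in 26.0% and 23.8% of Mono, 6.80% and 6.30% of MP and 56.4% and 46.4% of cMoP cells, against 2.44% and 4.65% in Eryth. Csf1r was seen in 17.3% and 17.8% of Mono cells (71.8% and 62.0% unthinned). Gfi1 was seen in 4.22% and 4.15% of Mono cells, against 22.7% and 21.6% of Gran-1 cells and 2.44% and 2.33% of Eryth cells. Cebpe reached 16.0% and 15.3% of Mono cells, close to the 12.2% and 14.0% of Eryth cells, and 64.1% and 63.5% of Gran-1 cells. Both Irf8 and Gfi1 were seen in 16 of 450 and 24 of 602 Mono cells (3.56% and 3.99%).

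Surface proteins were read in the same cells, and no test was made of them, since an exact permutation over 2 libraries cannot give a p below 0.5. The median Ly-6C count was 12083 and 6974.5 in Mono, against 5525 and 3434.5 in MP and 21762 and 10509 in cMoP. It was 1087 and 846 in MDP and 2761 and 2257 in Gran-1, so that Mono stood 11.1-fold and 8.24-fold above MDP and 4.38-fold and 3.09-fold above Gran-1. A high Ly-6C count was not particular to Mono and cMoP. The medians were above Mono in Gran-2 (13963 and 8689.5), Myelo-1 (26086.5 and 15163) and Myelo-2 (13698.5 and 8779). The cells of Mono and MP overlapped widely: a Mono cell had the higher Ly-6C count in 67.6% and 69.0% of all pairs with an MP cell. CD117 ran the other way along the same clusters, with medians of 131 and 74 in Mono, 237 and 129.5 in MP, and 51 and 31 in cMoP. CD11b, an integrin of mature myeloid cells encoded by Itgam, stayed low, at 222 and 129.5 in Mono against 200 and 135 in cMoP and 314 and 206 in Gran-1. Ly-6G, a neutrophil protein, had medians of 75 and 62 in Mono against 14166 and 8183 in Myelo-4. Counts were lower in the male library for all 4 antibodies in Mono. The deposited log shares within a cell gave other ratios: CD11b was then lower in Mono than in MDP (-1.59 on the log2 scale, against 1.03 for the counts). Ly-6C made up most of the total behind these shares, with medians of 96.0% and 95.8% in Mono against 71.8% and 77.7% in MDP. A share of another antibody therefore also depends on the Ly-6C count. The part of this in the ratios was not tested.

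**Figure D4:**
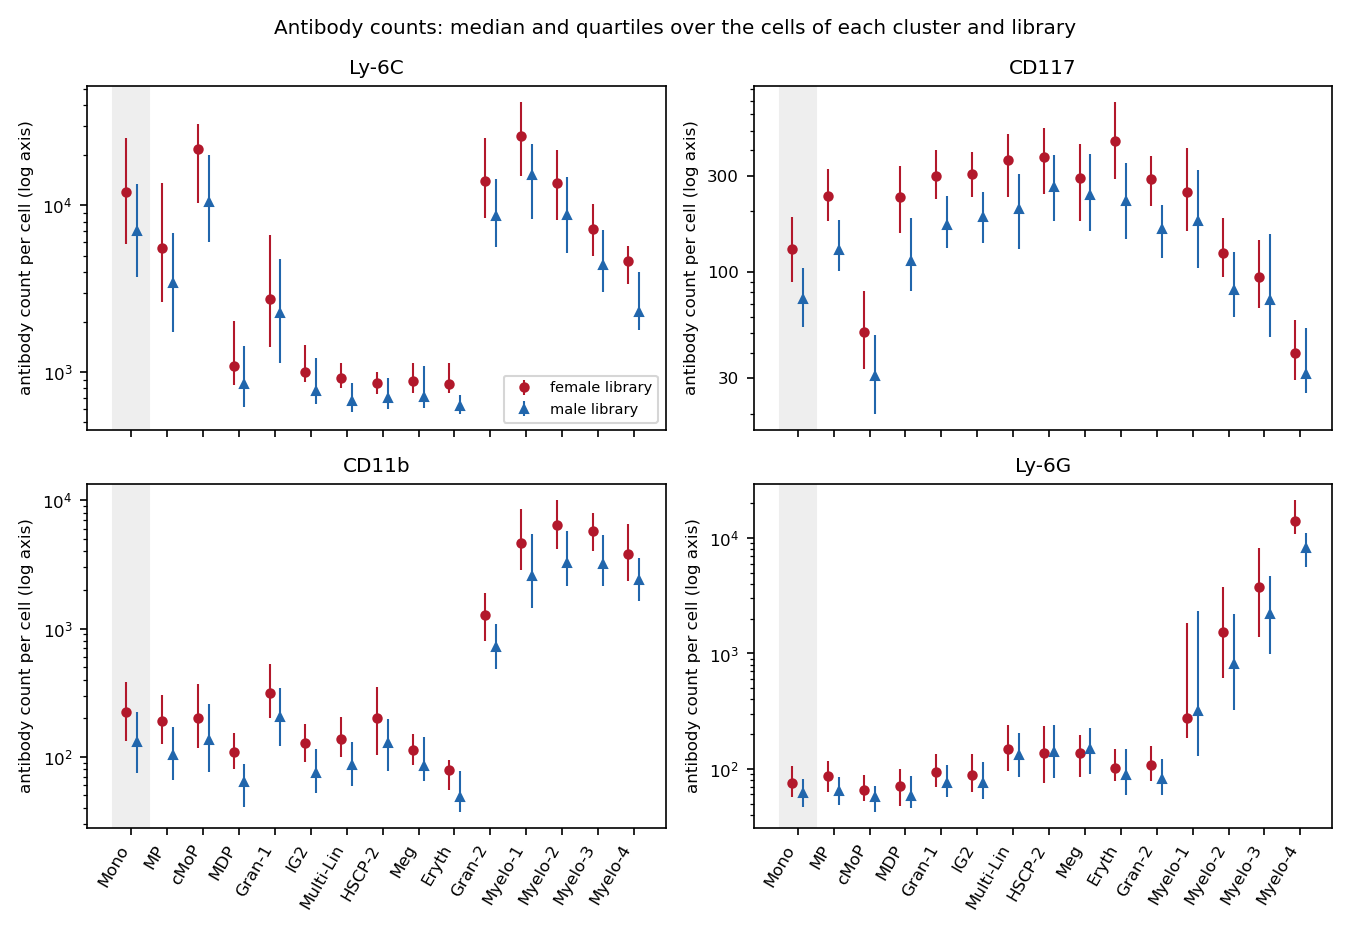
Median antibody count per cell (log axis) with quartiles as bars for Ly-6C, CD117, CD11b and Ly-6G in 15 clusters, by library. Mono (shaded) lies between MP and cMoP for Ly-6C and CD117 in both libraries, and far below Myelo-4 for Ly-6G. For Ly-6C, Gran-2, Myelo-1 and Myelo-2 also lie above Mono.

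A few Mono cells carried the neutrophil protein. Ly-6G was at least 10 times the library's Mono median in 2 female cells (6874 to 17518 counts) and 6 male cells (867 to 10357). These male cells held 1.44% of the Mono UMIs of their library but 15.3% of its S100a8 UMIs, a neutrophil calprotectin gene, and the female cells 0.410% and 2.02%. Counts of secondary granule genes in the antibody divisions are therefore given with and without these 8 cells, and those of primary granule genes were the same without them.

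Within Mono, antibody counts were used to divide the cells, because they come from another library than the transcripts. In each library, the third of the cells with the most antibody (150 female and 201 male cells) was compared with the third that had the least (as many). Summed counts were tested with edgeR's quasi-likelihood test with the library as a covariate, and p was adjusted by Benjamini-Hochberg over all genes tested. The SE was worked back from the test, as the absolute log2 fold change divided by the square root of F. With 4 sums and 1 residual degree of freedom, the spread came almost wholly from values shared between genes, so a gene carried by a few cells can pass. The cells with more antibody also had more UMIs: medians of 25081 and 21459 against 23498 and 19172 for Ly-6C, 26976.5 and 22625 against 23219 and 19079 for CD117, and 25676 and 22093 against 23369.5 and 18939 for CD11b. The part of this difference in the results was not tested. Ly-6C-high cells also had more CD11b (medians of 356.5 and 198 against 147 and 76) and less CD117 (120.5 and 69 against 142.5 and 82).

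Mono cells with the highest Ly-6C counts had more transcripts of a part of the monocyte identity and granule genes than those with the lowest. They had fewer of early progenitors. Of 9248 genes, 292 were higher (3.16%) and 171 lower (1.85%), 291 and 171 of them in the same direction in both libraries. Ly6c2 itself had 4239 and 4632 CPM in Ly-6C-high cells against 2895 and 2935 in Ly-6C-low cells, a log2 fold change of 0.60 ± 0.03 (SE, edgeR adjusted p = 1.53e-86). Klf4 had 115.7 and 94.2 CPM in the high cells against 54.3 and 51.7 in the low cells, with no overlap (0.98 ± 0.09, edgeR adjusted p = 6.39e-25). Clec4a2, a C-type lectin receptor gene, changed most among genes of 50 CPM or more, with 73.5 and 97.0 CPM against 18.8 and 21.4 (2.09 ± 0.12). Lgals3 rose by 1.58 ± 0.09 and Lyz2 by 0.89 ± 0.04. Sox4 had 48.5 and 30.2 CPM in the high cells against 93.5 and 81.1 in the low cells (-1.16 ± 0.10), and Cd34 79.8 and 85.1 against 136.4 and 131.5 (-0.70 ± 0.08). Ly6c2, Klf4, Clec4a2, Lgals3, Lyz2, Sox4 and Cd34 kept their call in each of the 10 alternatives tested. Of the other markers given for Mono, Irf8 rose by 0.14 ± 0.04 (edgeR adjusted p = 0.0291, not past the threshold in 4 of the alternatives), while Ly86 (-0.04 ± 0.07) and Prdx4 (-0.16 ± 0.08) did not pass.

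By list, 11 of 22 monocyte identity genes were higher with Ly-6C and 1 lower (Ccl9), with a median log2 fold change of 0.15 against 0.00 over all genes tested. Among the 11 was Ly6c2, a gene of the antibody's own protein. Of 12 multipotent genes tested, 4 were lower (Sox4, Cd27, Cd34 and Flt3) and none higher. Flt3 was near the floor, at 3.28 and 1.60 CPM against 7.28 and 5.15, and passed in 6 of 10 alternatives. Of 18 lysosome genes 7 were higher, among them Psap, and of 11 primary granule genes 6, with Elane at 6477 and 8107 CPM against 5406 and 5463 (0.42 ± 0.03). The median of the primary granule list, 0.17, was near that of monocyte identity. Cebpe rose by 0.49 ± 0.11 (edgeR adjusted p = 0.000616) and passed in 6 of 10 alternatives. Of 15 G2/M genes, 12 were higher. The G2/M count was 1 by log share (median log2 fold change 0.11) and 1 after thinning (0.40), against a median of 0.31 for all UMIs. Thinning left 5 monocyte identity genes and 2 of 17 lysosome genes higher. For secondary granule genes, 9 of 15 were higher (median 0.24), 6 without the 8 cells of high Ly-6G (median 0.10), and 7 were lower by log share (median -0.27). The whole counts were 41 higher and 9 lower with no replicate block, 27 and 5 by DESeq2, 130 and 60 by log share and 45 and 11 after thinning.

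Mono cells with the most CD117 had fewer transcripts of monocyte identity and more of early progenitors than those with the least. Of 9306 genes, 111 were higher (1.19%) and 272 lower (2.92%), 107 and 270 of them in the same direction in both libraries. Kit had 28.1 and 25.5 CPM in CD117-high cells against 16.0 and 18.2 in CD117-low cells (0.64 ± 0.16, edgeR adjusted p = 0.00309), and did not pass in 4 of 10 alternatives. Sox4 rose to 83.5 and 72.8 CPM in the high cells, against 47.1 and 38.2 in the low cells (0.87 ± 0.10), and Cd34 by 0.62 ± 0.08. Lgals3 had 51.8 and 49.4 CPM against 176.5 and 158.7 (-1.73 ± 0.08, edgeR adjusted p = 3.84e-101), Klf4 61.0 and 58.9 against 126.8 and 112.2 (-0.99 ± 0.08), S100a6 43.6 and 34.5 against 86.2 and 76.7 (-1.06 ± 0.10) and Lyz2 598.6 and 631.0 against 1112 and 1113 (-0.86 ± 0.04). Ly6c2 fell too (-0.41 ± 0.04). Lgals3, Klf4, S100a6, Lyz2 and Ly6c2 kept their call in all 10 alternatives. Irf8 fell by 0.18 with an SE of 0.04 (edgeR adjusted p = 0.00382), and Prdx4 by 0.40 with an SE of 0.07. Irf8 did not pass in 3 of the alternatives and Prdx4 in 4.

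Of 22 monocyte identity genes, 14 were lower with CD117 and none higher (median log2 fold change -0.29, against 0.00 over all genes tested), with 12 lower and 1 higher by log share and 6 lower after thinning. Of 12 multipotent genes, 6 were higher (Kit, Myb, Erg, Sox4, Cd27 and Cd34), and 12 of 18 lysosome genes were lower. Kit is the gene of CD117 itself. After thinning, none of 6 multipotent genes was higher and 1 of 17 lysosome genes lower. The G2/M list had 6 of 15 genes higher with CD117 and 1 lower, against 1 higher after thinning and 1 lower by log share. Antigen presentation genes were carried by few cells. Cd74, H2-Aa and H2-Ab1 were higher with CD117, but the 10 male cells with the most held 78.5% of the male Cd74 UMIs and 82.4% of those of H2-Aa. The basophil protease gene Mcpt8 was lower in the female library alone, at 25.8 CPM against 126.2, and higher in the male library, at 39.1 against 17.1. For secondary granule genes, 6 of 16 were higher and 3 lower with CD117, against none higher and 4 of 14 lower without the 8 cells of high Ly-6G. The whole counts were 5 higher and 35 lower with no replicate block, 2 and 38 by DESeq2, and 4 and 27 after thinning.

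Cells with the most CD11b resembled those with the most Ly-6C, and both antibodies rose together across Mono cells. Their rank correlation was 0.449 and 0.501 over 450 and 602 cells, given as a description, since both counts share the pooled library and both rose with a cell's UMIs. Of 9298 genes, 394 were higher (4.24%) and 319 lower (3.43%). Of these, 205 higher genes were shared with the Ly-6C division (52.0% of the CD11b and 70.2% of the Ly-6C genes), from partly the same cells. Itgam, the gene of CD11b, had 6.42 and 5.68 CPM in CD11b-high cells against 3.13 and 2.101 in CD11b-low cells (1.21 ± 0.36, edgeR adjusted p = 0.0167), and did not pass in 5 of 10 alternatives. Chil3, a lectin-like gene of myeloid cells, had 157.7 and 208.2 CPM against 84.6 and 63.0 (1.32 ± 0.07). Cebpe had 58.5 and 57.8 CPM against 31.6 and 31.3 (0.89 ± 0.12) and Elane 7286 and 8332 against 5030 and 5193 (0.61 ± 0.02). Flt3 (-1.59 ± 0.39), Sox4 (-0.80 ± 0.10) and Cd34 (-0.79 ± 0.07) were lower. Flt3 was near the floor, at 2.96 and 1.09 CPM against 7.41 and 4.73. It passed in 6 of 10 alternatives, against 9 for Sox4 and for Cd34.

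Granule genes moved with the CD11b count. Of 11 primary granule genes 9 were higher and of 16 secondary granule genes 15. The summed level of the secondary list was 8693 and 8667 CPM in CD11b-high cells against 7596 and 5157 in CD11b-low cells. By log share, 2 of 11 primary granule genes were higher (median log2 fold change 0.05, against 0.34 by count). For secondary granule genes it was 9 of 15 (0.35, against 0.53 by count). Without the 8 cells of high Ly-6G, the secondary list had 6 of 15 genes higher and 1 lower, and for Ly-6C it had 6 of 15 higher and none lower. Of 15 G2/M genes, 14 were higher with CD11b, 2 after thinning and none by log share. Of the 22 monocyte identity genes, 8 were higher and 5 lower (Prdx4 at -0.47 ± 0.07, Ccl9, Ctss, Cx3cr1 and Ms4a6c). The result depended on how antibody was scaled. By log share within the cell, 25 genes were higher and 29 lower, only 12 and 2 of them the same calls. Klf4 (-0.59), Lgals3 (-0.69), Ly6c2 (-0.22), Sox4 (0.59) and Flt3 (0.62) turned round. In Mono this share is taken of a total that was mostly Ly-6C (medians of 96.0% and 95.8%). The whole counts were 78 higher and 21 lower with no replicate block, 38 and 8 by DESeq2 and 47 and 22 after thinning.

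**Figure D5:**
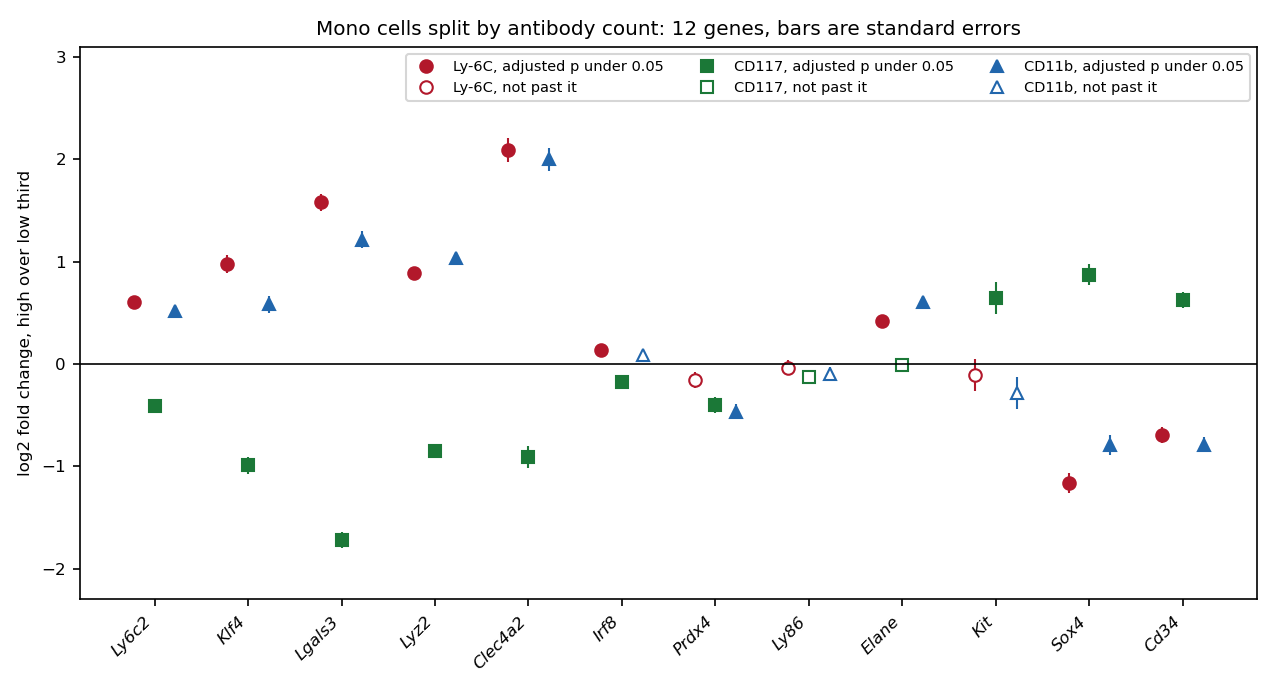
Log2 fold change of 12 genes between Mono cells with the most and the least Ly-6C, CD117 or CD11b antibody, with standard errors as bars, where filled symbols are past an adjusted p of 0.05 in edgeR. Klf4 and Lgals3 are positive for Ly-6C and CD11b and negative for CD117, and Sox4 and Cd34 the reverse.

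Protein and transcript of the same gene were related to different degrees within Mono. Over cells thinned to 4000 UMIs, the rank correlation of the Ly-6C count with Ly6c2 was 0.396 (450 female cells) and 0.441 (602 male cells), across cells that share a library and differ in depth. Kit was seen in only 9.11% and 7.48% of these cells and Itgam in 2.67% and 1.83%. At this depth the rank correlation was 0.053 and 0.037 for CD117 with Kit, and 0.041 and 0.075 for CD11b with Itgam. With all UMIs it was 0.203 and 0.189 for Kit and 0.118 and 0.136 for Itgam, but both antibody counts also rose with a cell's UMIs. No test was made of these values.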

How the data were processed

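The deposited tables hold whole-number counts of UMIs per gene and cell and counts of antibody tags, made by the authors with Cell Ranger 2.1.0 on mm10, per the submitters' processing notes. Antibody levels were also deposited as a natural log share within each cell; all 44528 of these values equal ln((count+1)/(sum+1)) within 1e-08. Clustering method, cell calling, doublet treatment and removal of duplicate antibody tags are not stated in those notes, and no doublet caller was run here. Of 28692 gene IDs, 353 had no symbol and held 0.0230% of UMIs. Library totals were 91448433 (female) and 124967351 (male) UMIs, and the shallowest cell had 4373.

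Here, counts were summed per cluster and library, with a pseudocount of 1 CPM and a mean of at least 10 CPM. Clusters were compared by size only, since they were made from these transcripts. Antibody divisions of Mono were tested with edgeR 4.0.16 in R 4.3.3, adjusted over all genes, with the library as a replicate block: high and low cells share a library by construction. That fit has 1 residual degree of freedom and an infinite prior, so its p-values mostly reflect counting error. A gene's own spread between the libraries hardly enters these p-values. The labels do not say whether the libraries came from separate animals beyond their sex, and the p-values do not cover spread between animals. DESeq2 1.42.0, other filters, scalings, log shares, thinned cells and each library alone were alternatives. Python 3.11.15 with numpy 2.4.6, pandas 2.3.3, scipy 1.17.1 and matplotlib 3.10.9 did the rest, and the fits were tested on simulated data. Named genes were the given markers, a fixed set of regulators, receptors and granule genes, up to 3 genes of each list by level, and the 6 largest changes each way at 50 CPM or more. Others were picked after their values were seen. Members and lists were chosen with earlier results of these data known. 1 of 297 listed genes, Clec7a, was not in the table.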

Additional observations from a re-analysis of the deposited data

How the results depend on the processing

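Counts of genes called between clusters moved with the filter and the tool. At a mean of 1 CPM or more, the genes higher and lower in Mono numbered 61 and 5 (MP), 53 and 70 (cMoP), 111 and 72 (MDP) and 299 and 225 (Gran-1); at 50 CPM they were 12 and 1, 3 and 15, 30 and 7, and 47 and 44. edgeR with the replicate block called 171 and 53, 46 and 125, 191 and 198, and 611 and 496 genes, and with no replicate block 109 and 21, 19 and 77, 143 and 129, and 574 and 437. DESeq2 called 60 and 8 for MP, 39 lower for MDP, and 447 and 310 for Gran-1. The 2 genes lower than in MP became 5 with DESeq2 size factors, plain CPM or without the 5% of cells of highest UMI count, 4 without shared barcodes and 1 with a pseudocount of 5 CPM, which gave 5 higher and 23 lower for cMoP. Thinning to 4000 UMIs gave 62 and 59 for cMoP and 35 lower for MDP, and the mean of single-cell CPM 5 and 54 for cMoP and 31 lower for MDP. Of the cMoP calls, 20.5% were higher in Mono, against 8.47% by mean single-cell CPM, 51.2% after thinning (where the median of all genes was 0.15) and 43.1% at 1 CPM; for MDP these shares were 78.5%, and 64.4% by mean single-cell CPM and 60.7% at 1 CPM. With 1 library left out, genes lower than in MP numbered 4 to 4, higher than in cMoP 23 to 92, lower than in cMoP 51 to 64, and lower than in MDP 27 to 41.

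For the antibody divisions of Mono, the counts with no replicate block were 41 higher and 9 lower (Ly-6C), 5 and 35 (CD117) and 78 and 21 (CD11b), with DESeq2 27 and 5, 2 and 38, and 38 and 8, and after thinning 45 and 11, 4 and 27, and 47 and 22. With all genes that had a count, 111 were lower for Ly-6C and 195 for CD11b. Comparing the upper with the lower 50% of cells gave 65 and 181 for CD117. By the deposited log share the counts were 130 and 60 for Ly-6C, 229 higher for CD117 and 25 and 29 for CD11b, and these genes changed sign: Ube2c (-0.18), Ccnb1 (-0.16) and Nusap1 (-0.39) for CD117, and Ly6c2 (-0.22), Klf4 (-0.59), Flt3 (0.62), Cd34 (0.24), Clec4a2 (-0.15), Lgals3 (-0.69), Mcpt8 (-0.031), Lyz2 (-0.029), Sox4 (0.59), Ccnd2 (0.20), Bcl2 (0.14) and Serpinf1 (0.05) for CD11b. Mcpt8 for CD117 was -2.25 for female cells alone and 1.17 for male cells alone. The cause of these changes was not tested.

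Antibody ratios of Mono over MP, cMoP, MDP and Gran-1 (log2) were 0.066, -0.031, 0.36 and 0.26 by log share for Ly-6C, -1.81, 1.73, -3.54 and -2.85 for CD117, -0.67, 0.73, -1.59 and -1.98 for CD11b and -1.07, 0.77, -2.62 and -1.86 for Ly-6G. Centred within the cell, Ly-6C was 0.86, -0.94 and 2.25 over MP, cMoP and MDP, CD117 -0.94, 1.10, -1.56 and -1.13 over all 4, CD11b 0.20, -0.15, 0.27 and -0.42, and Ly-6G -0.038, -0.77 and -0.23 over cMoP, MDP and Gran-1. Ly-6G over MDP was 0.11 without shared barcodes, and CD11b over cMoP lay between -0.06 and 0.15 with 1 library left out. With clusters of at least 50 cells in each library, 193 genes were highest in Mono. Unthinned shares of Mono cells in the female and male library were 100% and 99.5% (Irf8), 27.3% and 21.6% (Gfi1), 71.8% and 62.0% (Csf1r) and 43.1% and 33.7% (Kit). Over the settings of the main results, 139 values kept their direction and stayed within the stated limits (1.5 times for a count of genes). Another 117 moved past these limits and 7 changed direction. The small cMoP cluster and the single residual degree of freedom limit what these data can show.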
